A study of Mus musculus with 6 samples.

Results

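The genes described here encode 10 proteins of the cardiac contractile lattice: the troponin subunits Tnnt2, Tnni3, Tnni1 and Tnnc1, the tropomyosin Tpm1, the myosin-binding protein Mybpc3, the giant spring titin (Ttn), and the Z-disc proteins Actn2, Ldb3 and Tcap. They were chosen by gene symbol, and 22 of the 45101 probe sets on the array carry these symbols alone. Ttn has 6 probe sets, Tpm1 has 4, Tnnt2 and Ldb3 have 3 each, and the other genes have 1 each. A probe set is a group of short oligonucleotides that together give 1 fluorescence value for a transcript, in arbitrary units on a linear scale. RNA came from the left ventricle of 6 male C57BL/6 mice, aged 6 months and fed a high fat diet for 16 weeks. Placebo was given to 3 of them, and the other 3 received an agent that the labels name only as Lira. All mice of both groups were on the fat-rich food, so no lean mouse is among the samples compared here, and further mice of the design, which names 10, are not analysed here. 1 array was run for each mouse.

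Heart muscle shortens when myosin heads on the thick filament pull on actin in the thin filament. Calcium binds troponin C, troponin I then releases its hold on actin, and troponin T passes this to tropomyosin, which uncovers the myosin binding sites. Titin runs from the Z-disc to the middle of the sarcomere and sets the passive stiffness of the muscle cell, while alpha-actinin, Ldb3 and Tcap hold the filament ends in the Z-disc. Mutations in many of these genes cause inherited cardiomyopathies.

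The brightest probe set of each adult cardiac isoform was bright in every ventricle, and no member passed an adjusted p of 0.05 between Lira and placebo. Of the 10 genes, each represented by its brightest probe set, 9 passed the filter on low signal and were tested with limma, a linear model that pools the spread over genes, with Benjamini-Hochberg adjustment over 12735 genes. Of these 9 genes, 0 passed adjusted and 1 (Tcap) had an unadjusted p under 0.05, against 0.055% and 6.02% of all genes tested. Differences are given as Lira minus placebo on the scale of log2(signal + 16). They ran from -0.12 for Mybpc3 to 0.17 for Tcap, with 6 genes above 0 and 3 below, and had a median of 0.09 beside 0.01 over all genes tested. The members' median was -0.01 without Lira replicate 2, 0.03 without placebo replicate 3, 0.01 after quantile normalisation, 0.03 with a gene's probe sets averaged and 0.04 with array weights. When the 22 probe sets were tested one by one among 24461 probe sets, 21 passed the filter, 0 passed adjusted and 4 had an unadjusted p under 0.05, beside 0.00818% and 5.6% of all probe sets. These 4 were Tcap and 3 dimmer probe sets of Ttn and Ldb3, and not all of them stayed under 0.05 in the other fits.

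Median signal and RNA integrity overlapped between the groups. The 2% trimmed mean was 150 on each array, a value that scaling fixes and that does not compare the groups. The median signal lay between 28.6 and 39.6, highest on Lira replicate 2. The ratio of the 3′ to the 5′ control probe set was 0.78 to 0.83 for Gapdh with placebo and the same with Lira, and for Actb it was 1.55 to 1.67 with placebo and 1.63 to 1.74 with Lira. Cardiomyocyte markers outside the sarcomere, among them Ryr2 and Pln, were bright, and the signals of the 10 markers summed to 192075 to 199833 with placebo and 193980 to 229014 with Lira, the highest on Lira replicate 2. Fast skeletal muscle markers summed to 185 to 259 with placebo and 146 to 213 with Lira over 10 genes, and Myh4 did not exceed 16.0 on any array. Of the 9 listed erythroid genes 4 had a probe set of their own, and these summed to at most 123, although the labels' extraction protocol names blood as its material. The listed beta-globin genes had no probe set of their own, so this sum does not show how much blood the samples held. The atrial marker Myl7 stayed at or below 17.3, while the atrial list of 6 genes summed to 2792 to 3220 with placebo and 1630 to 2270 with Lira, most of it Nppa. The sums of the 8 fibroblast markers (11480 to 12172 with placebo, 12351 to 14466 with Lira), the 7 smooth muscle and pericyte markers (9536 to 10752 and 11018 to 12482) and the 7 leukocyte and macrophage markers (2472 to 2608 and 2757 to 3141) did not overlap between the groups, and those of the 7 endothelial markers did (3241 to 3592 and 3502 to 3749). With each marker left out in turn, the leukocyte sums still did not overlap, while the fibroblast sums overlapped without Dcn (4613 to 5344 and 4806 to 5760) and without Fbln1, and the smooth muscle sums without Acta2 (8462 to 9629 and 9105 to 9520). The atrial sums overlapped without Nppa, at 137 to 182 and 128 to 244. Over the 6 arrays the first marker of each list lay between 54.2 and 118 (Col1a1, fibroblast), 121 and 185 (Myh11, smooth muscle), 92.9 and 153 (Ptprc, leukocyte), 187 and 349 (Pecam1, endothelial) and 2.08 and 63.9 (Alas2, erythroid). No listed marker with a probe set was at 0. The part of these shifts in the values below was not tested, and in whole ventricle fewer cells of a type and less RNA per cell cannot be told apart.

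The troponin genes of the thin filament gave overlapping groups. Tnnt2, the cardiac troponin T that anchors the troponin complex to tropomyosin, had the probe set 1418726_a_at at 34742, 37055 and 34000 signal units in the 3 placebo mice and at 38513, 41280 and 34475 in the 3 Lira mice. Lira replicates 1 and 2 lay above every placebo array and Lira replicate 3 lay among them. The log2 difference was 0.11 ± 0.08 (SE, n = 3 per group; limma, adjusted p = 0.89), and it was -0.03 after quantile normalisation. A second bright Tnnt2 probe set, 1424967_x_at, gave 31038 ± 864 and 33934 ± 3923 (SD), a log2 difference of 0.12 ± 0.09. The suffix x marks probe sets of which some oligonucleotides also match other sequences. The dim Tnnt2 probe set 1440424_at measured 139 ± 32.2 and 136 ± 19.6.

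Tnni3, the cardiac troponin I that holds the thin filament off at low calcium and is a target of beta-adrenergic kinase signalling, measured 20156, 21438 and 20726 with placebo and 21695, 26677 and 20766 with Lira. Lira replicate 2 stood above all other arrays, and the log2 difference was 0.14 ± 0.09 with all arrays and 0.03 without that array. Tnnc1, the calcium sensor troponin C of heart and slow muscle, measured 17926, 19244 and 18504 with placebo and 17995, 21155 and 17926 with Lira. Lira replicate 2 was again the highest array, and the other 2 Lira values lay at the low end of the placebo values. The log2 difference of Tnnc1 was 0.03 ± 0.08, with a 95% interval from -0.15 to 0.21, and it was -0.05 without Lira replicate 2.

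Tnni1, the slow skeletal troponin I that the fetal heart uses before Tnni3 replaces it, was at the bottom of the signal range. Its probe set 1450813_a_at measured 2.95, 5.85 and 4.41 with placebo and 18.9, 7.76 and 1.95 with Lira. All 6 values lie under 23.7, the lowest mean of a tested gene, so Tnni1 was not tested. The placebo values lie inside the range of the Lira values. The planned comparison of its change with that of Tnni3 is void for the same reason, and its values appear only among the processing alternatives.

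Tpm1, the main cardiac tropomyosin, had a bright probe set, 1423049_a_at, that measured 25543, 28729 and 24171 with placebo and 26769, 31761 and 24912 with Lira. The groups overlapped and the second replicate was the highest in each. The log2 difference was 0.09 ± 0.10 (limma, adjusted p = 0.95), and without Lira replicate 2 it was -0.01. The Tpm1 probe set 1447713_at measured 2300, 2068 and 3077 with placebo and 2268, 1988 and 1901 with Lira, a log2 difference of -0.26 ± 0.13 that was -0.09 without placebo replicate 3, the highest array. Of the remaining Tpm1 probe sets, 1423721_at measured 177 ± 9.89 and 170 ± 18.1, and 1456623_at measured 83.3 ± 23.2 and 123 ± 55.5, where Lira replicate 3 stood at 185 and the next highest array at 109.

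**Figure D1:**
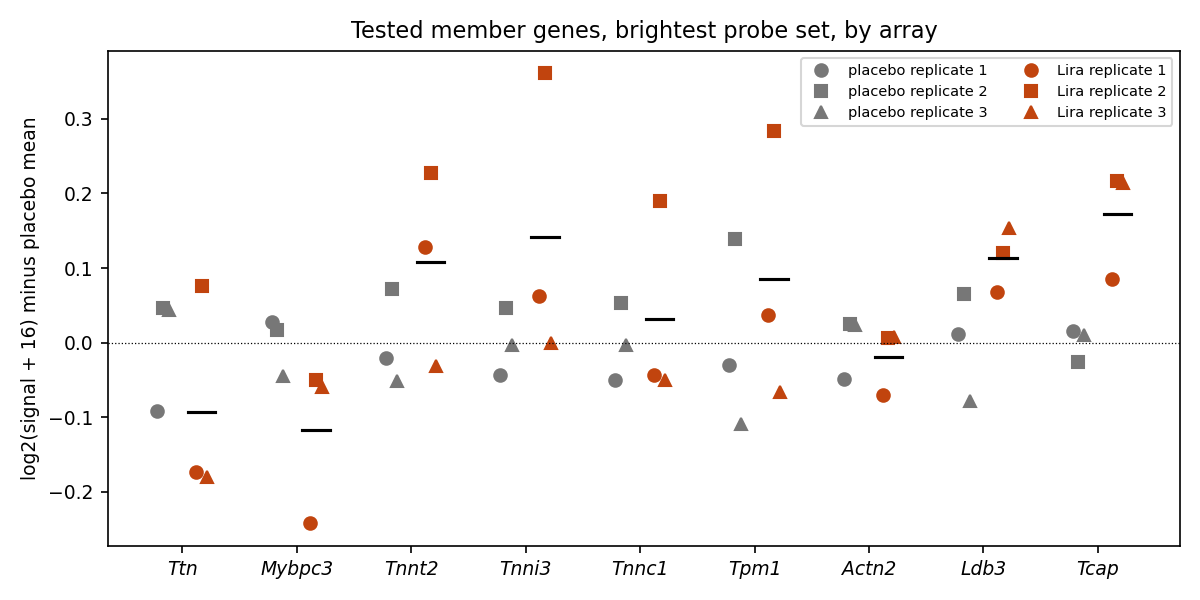
The 9 tested member genes by array: the y axis gives log2(signal + 16) of the brightest probe set minus the mean of the 3 placebo arrays, grey for placebo and orange for Lira, with marker shape for the replicate number and a black line at the Lira mean. The Lira means lie between -0.12 for Mybpc3 and 0.17 for Tcap. Lira replicate 2 (orange square) is the highest array in 6 of the 9 genes, and the share over all genes tested was not taken.

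Mybpc3, the cardiac myosin-binding protein C that tunes how readily myosin heads reach actin, had 1 probe set. It measured 12912, 12821 and 12277 with placebo and 10710, 12238 and 12151 with Lira. Every Lira value lay below every placebo value, with the nearest arrays, Lira replicate 2 and placebo replicate 3, at 12238 and 12277. The log2 difference was -0.12 ± 0.08, with a 95% interval from -0.29 to 0.06 (limma, adjusted p = 0.87), and without Lira replicate 1 it was -0.05. Among the 9 tested genes the groups did not overlap in 3, Mybpc3 with lower and Ldb3 and Tcap with higher Lira values, beside 11.4% of all genes tested.

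Titin transcripts were measured by 6 probe sets, whose log2 differences ranged from -0.89 to 0.08. The brightest Ttn probe set, 1427445_a_at, measured 21599, 23774 and 23720 with placebo and 20412, 24247 and 20315 with Lira. Lira replicate 2 was the highest array and the other 2 Lira arrays the lowest, and the log2 difference was -0.09 ± 0.09 (limma, adjusted p = 0.93). It was -0.18 without Lira replicate 2 and -0.05 without either of the other Lira arrays, -0.14 after quantile normalisation, and -0.24 with the Ttn probe sets averaged. The unadjusted p in limma was 0.042 without Lira replicate 2, 0.017 after quantile normalisation and 0.018 with averaging, and the adjusted p was 0.72, 0.63 and 0.86. The second, 1427446_s_at, measured 12190 ± 596 with placebo and 12424 ± 1040 with Lira. The suffix a marks probe sets that match several transcripts of 1 gene, and the suffix s those shared by transcripts that can come from different genes.

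The Ttn probe set 1444638_at measured 912, 1005 and 949 with placebo and 736, 426 and 664 with Lira. The probe set 1444083_at measured 2034, 2507 and 2591 with placebo and 1983, 629 and 1625 with Lira. In both, every Lira value lay below every placebo value and Lira replicate 2 was the lowest array, whereas on the brightest Ttn probe set the same array was the highest. The log2 difference was -0.67 ± 0.16 for 1444638_at (limma, unadjusted p = 0.0012, adjusted p = 0.50) and -0.89 ± 0.30 for 1444083_at (unadjusted p = 0.011, adjusted p = 0.74). Without Lira replicate 2 the differences were -0.44 ± 0.11 and -0.39 ± 0.13 in limma, with unadjusted p of 0.0024 and 0.011 and adjusted p of 0.69 and 0.77. With a robust prior the unadjusted p in limma was 0.0012 for 1444638_at and 0.12 for 1444083_at. Without the variance trend it was 0.017 and 0.066. Of the 2 remaining Ttn probe sets, 1431928_at measured 463 ± 23.1 and 492 ± 41.6, and the dim 1446450_at 23.8 ± 8.71 and 28.1 ± 18.7. The name table does not say which exons of the very long Ttn transcript these probe sets match.

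Whether probe sets of 1 gene differed in their change was tested for all genes at once, by fitting the log2 difference between each probe set and the brightest of its gene in limma. This test was chosen after the values had been seen. Of 10648 probe sets, 0 passed an adjusted p of 0.05 and 570 had an unadjusted p under 0.05, or 5.35%. For 1444638_at against the brightest Ttn probe set the log2 difference of changes was -0.58 ± 0.28 (limma, unadjusted p = 0.076, adjusted p = 0.92), and for 1444083_at it was -0.80 ± 0.46 (unadjusted p = 0.12). Without Lira replicate 2 these were -0.26 and -0.22.

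The 250 bases before the RefSeq start of Ttn, Mybpc3 and Ldb3 are printed because these are the members with a muscle regulatory motif of low frequency in that window, and because Ttn and Ldb3 hold the 3 dimmer probe sets with an unadjusted p under 0.05. Sequences are from RefSeq on GRCm38.p6, 5′ to 3′ on the strand of the gene, and capitals mark the match. 9 of the 10 members had a window in the table used. The Ttn window is chr2:76982548-76982797 on the minus strand, the Mybpc3 window chr2:91117894-91118143 on the plus strand and the Ldb3 window, 1 of 2 in the table, chr14:34588682-34588931 on the minus strand.
Ttn: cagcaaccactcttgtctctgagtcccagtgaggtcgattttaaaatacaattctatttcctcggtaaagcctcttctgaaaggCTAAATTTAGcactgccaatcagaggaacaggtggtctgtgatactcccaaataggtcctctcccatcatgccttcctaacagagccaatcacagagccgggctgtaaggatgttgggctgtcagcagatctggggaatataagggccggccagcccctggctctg
Mybpc3: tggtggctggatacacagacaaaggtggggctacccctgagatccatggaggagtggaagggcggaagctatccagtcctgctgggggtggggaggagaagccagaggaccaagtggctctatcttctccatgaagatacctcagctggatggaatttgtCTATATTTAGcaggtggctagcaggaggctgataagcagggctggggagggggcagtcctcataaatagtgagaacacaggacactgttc
Ldb3: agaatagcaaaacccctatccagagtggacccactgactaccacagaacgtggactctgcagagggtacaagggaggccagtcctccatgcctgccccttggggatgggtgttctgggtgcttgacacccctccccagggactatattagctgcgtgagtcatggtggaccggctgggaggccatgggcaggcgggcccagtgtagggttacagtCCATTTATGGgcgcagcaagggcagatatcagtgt
In Ttn and Mybpc3 the capitals mark a match to the consensus of MEF2, a transcription factor of muscle genes, between 166 and 157 bases before the start in Ttn and between 90 and 81 in Mybpc3. In Ldb3 they mark a match to the CArG box, the consensus bound by serum response factor, between 35 and 26 bases before the start. In the other Ldb3 window the same match lies between 109 and 100 bases before the start of that window's transcript. Windows of this length held a MEF2 match in 2.92% and a CArG match in 1.47% of 32851 windows in the table, searched on both strands, and in the member windows no match of 1 motif overlapped a match of another. The M-CAT core CATTCC, a motif of TEAD factors, was found in the windows of Tnnc1 and Tpm1, in 1 of the 2 windows of Tnnt2 and in 12.6% of all windows. A match describes the letters only, and these arrays did not measure binding.

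Among the Z-disc genes, Actn2, the alpha-actinin that crosslinks actin filaments of neighbouring sarcomeres, had the narrowest range. It measured 10919, 11486 and 11475 with placebo and 10754, 11342 and 11350 with Lira, so the groups overlapped almost fully. The log2 difference was -0.02 ± 0.07, and its 95% interval ran from -0.18 to 0.14.

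Tcap, also called telethonin, which caps the ends of titin molecules in the Z-disc, measured 14738, 14312 and 14674 with placebo and 15467, 16942 and 16902 with Lira. All 3 Lira arrays lay above all placebo arrays, at a mean of 16437 ± 841 against 14575 ± 230 (SD), or 1.13 times the placebo level. The log2 difference was 0.17 ± 0.08 (limma, unadjusted p = 0.040, adjusted p = 0.81 over all genes). It stayed between 0.13 and 0.22 in the alternatives run, and its unadjusted p in limma ranged from 0.025 to 0.14, the highest without the variance trend.

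Ldb3, known as Cypher or ZASP, links alpha-actinin to signalling proteins at the Z-disc, and its transcript is spliced into heart and skeletal muscle forms. The brightest probe set, 1416752_at, measured 7693, 7982 and 7227 with placebo and 7995, 8294 and 8485 with Lira, with a gap between the groups from 7982 to 7995. Its log2 difference was 0.11 ± 0.08 (limma, adjusted p = 0.87). The probe set 1433783_at measured 4061, 4076 and 3870 with placebo and 4130, 3867 and 3761 with Lira, with overlapping groups. The dimmest, 1451999_at, measured 733, 777 and 741 with placebo and 574, 521 and 530 with Lira. Here the Lira arrays all lay below the placebo arrays and the means were 750 ± 23.3 and 541 ± 28.4, a placebo level 1.39 times that with Lira.

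The log2 difference of 1451999_at was -0.46 ± 0.10. In limma this had the smallest unadjusted p among the member probe sets, 0.00053, and an adjusted p of 0.40 over all probe sets. It lay between -0.50 and -0.43 with each array left out in turn. Set against the brightest Ldb3 probe set, the log2 difference of changes was -0.57 ± 0.17 (limma, unadjusted p = 0.011, adjusted p = 0.82), and the 3 Lira arrays were at -0.44, -0.63 and -0.64 relative to the placebo mean of this contrast while the placebo arrays were within -0.04 to 0.06. Averaged over its 3 probe sets, Ldb3 had a log2 difference of -0.13. Of the 21 tested member probe sets the groups did not overlap in 6, beside 11.2% of all probe sets tested, and 4 of these 6 had lower Lira values, beside 5.57% of all.

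**Figure D2:**
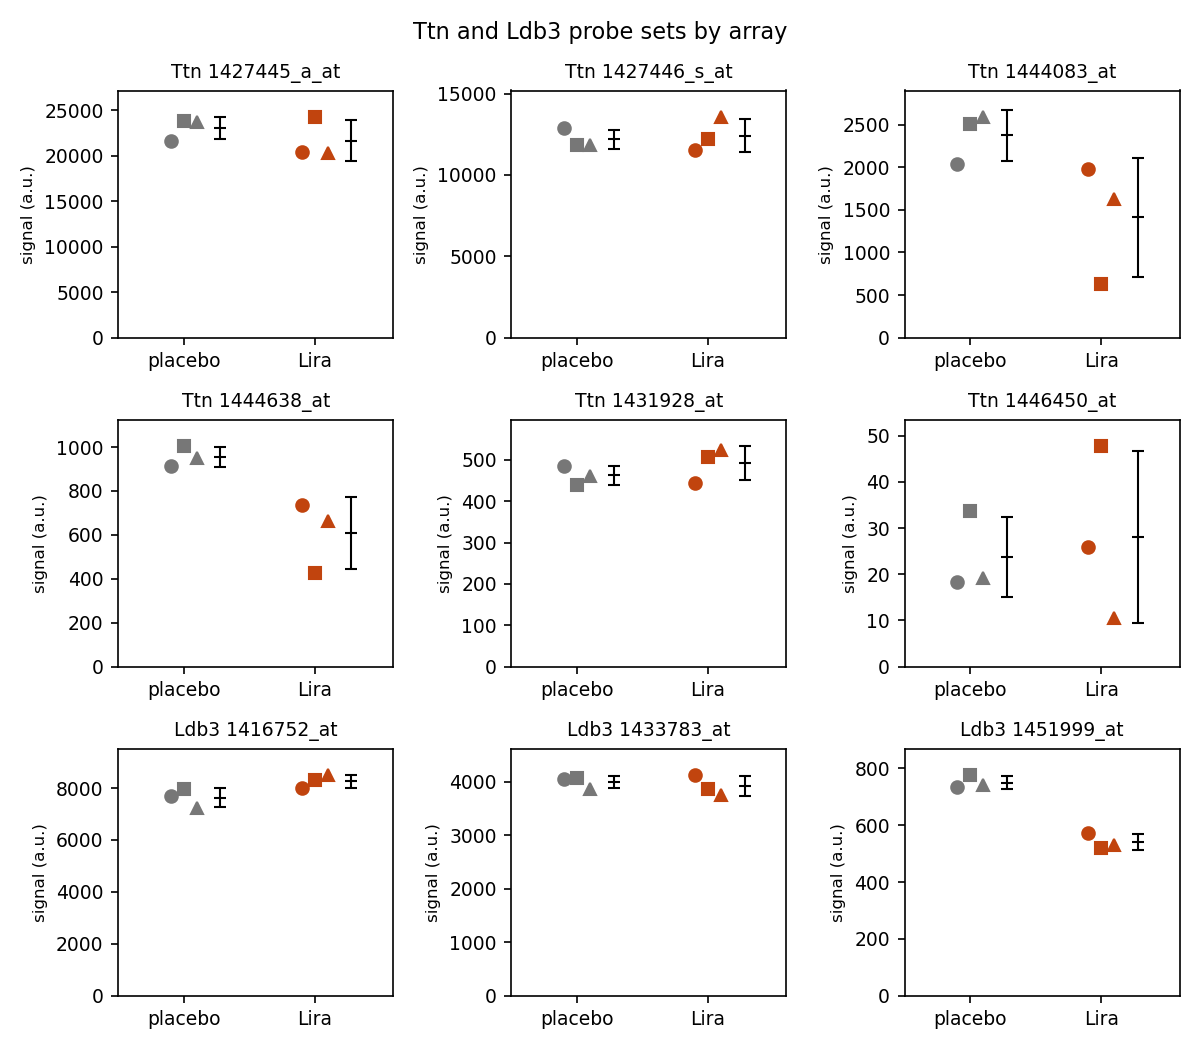
Signal of the 6 Ttn and 3 Ldb3 probe sets in arbitrary linear units by array, with marker shape for the replicate number and black bars for mean ± SD of 3 arrays. In Ttn 1444083_at, Ttn 1444638_at and Ldb3 1451999_at every Lira array lies below every placebo array, at means of 1412, 609 and 541 against 2377, 955 and 750, while the brightest probe set of each gene does not show lower values of that size.

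**Figure D3:**
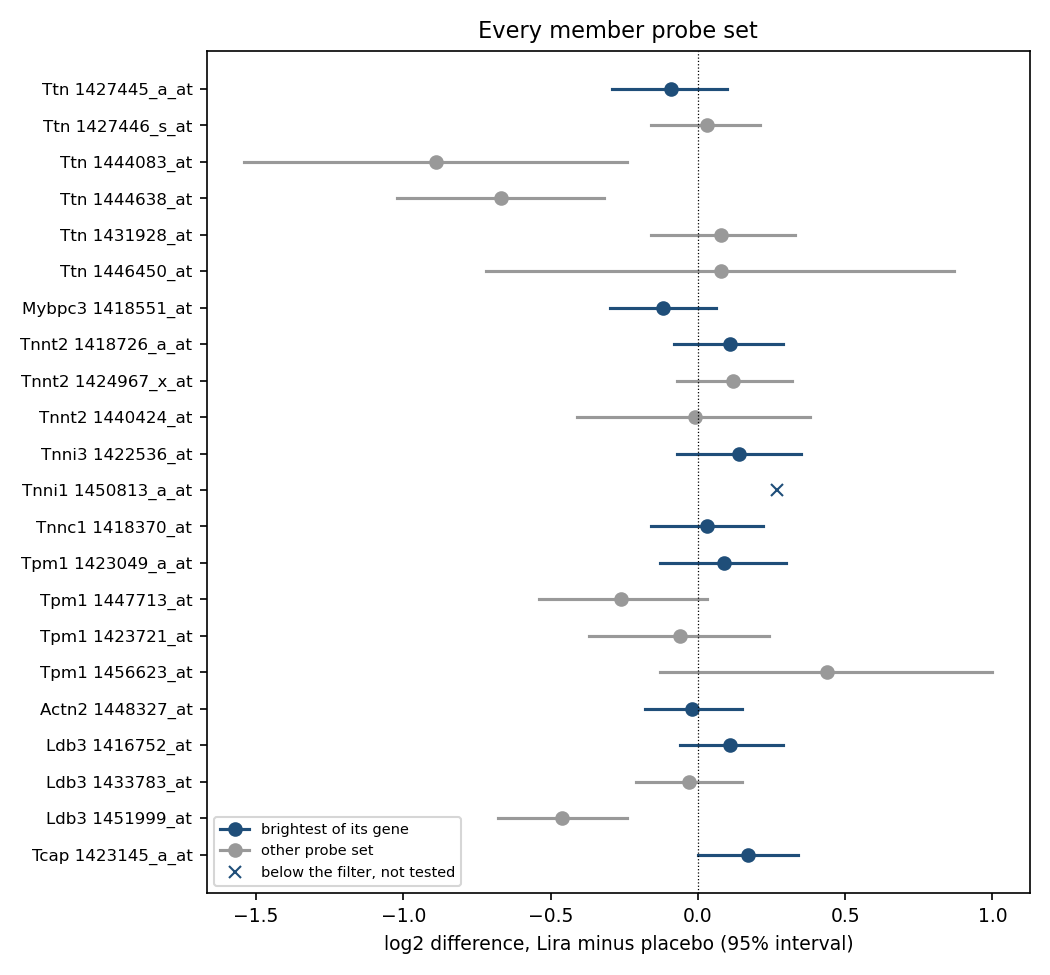
Log2 difference, Lira minus placebo, with 95% interval from limma for the 21 tested member probe sets, blue for the brightest of each gene and grey for the others; the untested Tnni1 is a cross. Intervals of the brightest probe sets are narrow and lie near 0, with that of Tcap at 0.0 to 0.34 (limma, unadjusted p = 0.045). The intervals of Ttn 1444083_at (-1.54 to -0.24), Ttn 1444638_at (-1.02 to -0.32) and Ldb3 1451999_at (-0.68 to -0.24) lie below 0 before adjustment.

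Across the 9 tested genes, Lira replicate 2 was the highest array in 6 and the lowest in 0. The share of all tested genes that were highest on this array was not taken. Its median signal, 39.6, was also the highest of the 6 arrays, so the count is not read as particular to the members. The mean of the log2 values of the 9 genes, each gene centred on its mean over the 6 arrays, was 0.14 on Lira replicate 2 and between -0.05 and 0.03 on the other arrays. That array also had the highest sum of cardiomyocyte markers outside the sarcomere. The genes outside the group whose centred profile was nearest to this mean, by root mean square distance over the 6 arrays, were Mtx1 (0.023), Usp1 and Atp5c1 (0.024 each), Pard6g (0.027) and Sdhb (0.028) on the log2 scale. Mtx1 encodes an import protein of the outer mitochondrial membrane, Atp5c1 a subunit of ATP synthase, and Sdhb a subunit of respiratory complex II. Usp1 and Pard6g are not described here. The share of mitochondrial genes over all genes was not taken, so no theme is drawn from these genes.

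The other genes of the sarcomere were taken from 4 lists of 79 genes, of which 69 were tested. Of these, 1 passed the adjusted threshold, Acta1, and 14 had an unadjusted p under 0.05, 3 higher and 11 lower with Lira, beside 2.91% higher and 3.12% lower of all genes tested. The lists were chosen with earlier results of these data known, so these counts only describe the listed genes. The median log2 difference was -0.08 over 14 other thin filament genes, -0.04 over 11 thick filament and M-band genes, -0.04 over 27 other Z-disc and costamere genes, and 0.02 over 17 genes of sarcomere assembly, splicing and signalling.

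In the thin filament, Acta1, the skeletal alpha-actin of the fetal and overloaded heart, measured 2611, 2762 and 3553 with placebo and 1457, 1893 and 1421 with Lira. It fell by 0.90 ± 0.13 on the log2 scale (limma, adjusted p = 0.022, and 0.0065 to 0.90 over the alternatives). Without Lira replicate 1, Lira replicate 3 or placebo replicate 2, Acta1 had adjusted p of 0.13, 0.22 and 0.054 in limma. Tpm3, a tropomyosin of slow muscle and non-muscle cells, measured 532 ± 28.5 and 628 ± 27.1. Among thick filament and M-band genes, the slow myosin Myh7 measured 1610 ± 408 and 1041 ± 62.3, a log2 difference of -0.59 ± 0.15 (limma, adjusted p = 0.44), and it passed in 1 of the alternatives at 0.037, without placebo replicate 1. Myom2, the M-band protein myomesin 2, measured 10968, 11127 and 10932 with placebo and 7752, 9562 and 9803 with Lira, with no overlap, agreement in sign among 3 of 4 probe sets and a log2 difference of -0.29 ± 0.09 (limma, adjusted p = 0.64). In the Z-disc list, the stretch-responsive titin-binding protein Ankrd1 measured 9393 ± 1484 and 6972 ± 873. Cmya5, or myospryn, which binds alpha-actinin and titin, measured 4828, 4499 and 4498 with placebo and 5593, 5375 and 5974 with Lira. The log2 differences were -0.43 ± 0.12 for Ankrd1 and 0.29 ± 0.08 for Cmya5, each with an adjusted p of 0.54 in limma. In the last list, Prkaca, the catalytic subunit of protein kinase A that phosphorylates Tnni3 and Mybpc3, measured 3241 ± 220 and 2695 ± 311, with the other sign on its second probe set. The calcium-dependent kinase Camk2d measured 528 ± 52.5 and 424 ± 62.8, with overlapping groups.

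**Figure D4:**
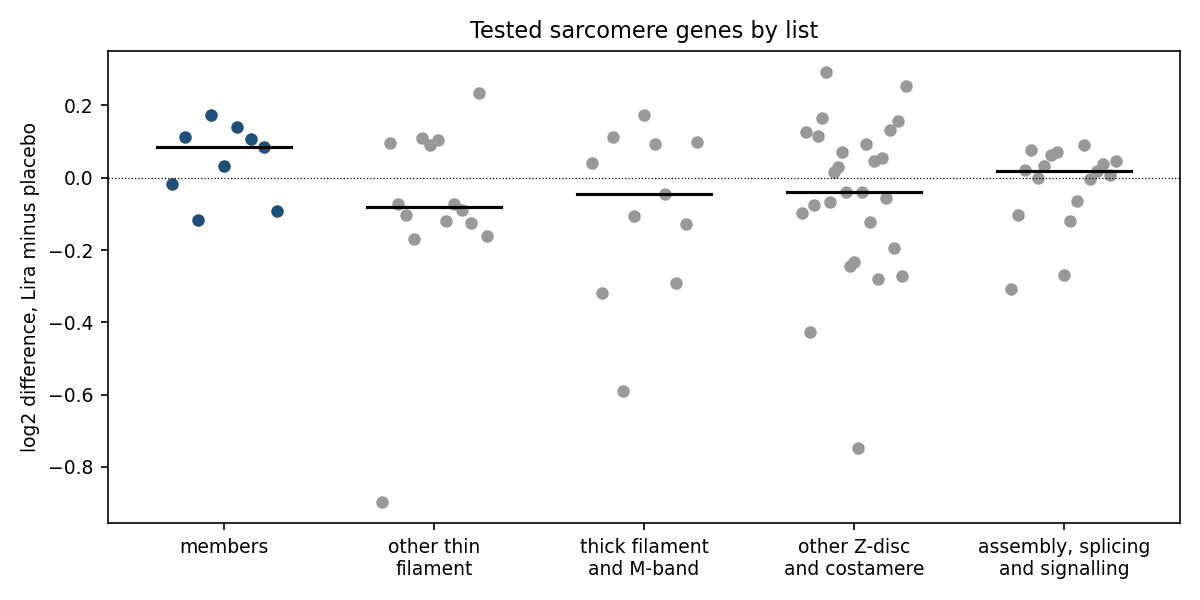
Log2 difference, Lira minus placebo, of the tested genes of the group (blue, 9 genes) and of the 4 lists of other sarcomere genes (grey), with a black line at each median. The members lie between -0.12 and 0.17, and the lowest point among the others is Acta1 at -0.90.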

How the data were processed

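The authors deposited linear signal intensity values, 1 per probe set and array, for which the submitters' processing notes name Affymetrix Expression Console, with no version. The summary algorithm and the genome build are not stated in any source used here. Scaling every array to the same trimmed mean leaves only changes relative to other transcripts, and no detection calls were used here. After 64 control probe sets were left out, 34945 probe sets named with 1 gene were kept, and 99.42% of them matched a RefSeq gene ID. Each of 18193 genes was represented by its brightest probe set, the 30% with the lowest mean were left out, and log2(signal + 16) was fitted in limma 3.58.1 under R 4.3.3 with eBayes and a variance trend, two-sided, without a block, with Benjamini-Hochberg adjustment at 0.05. The same fit was run on every probe set, with a lowest mean of 18.3. The fit of differences between probe sets of a gene had no variance trend.

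The members and gene lists were chosen with earlier results of these data known. All members with every probe set are named, as are the 2 genes with the smallest p in each list of other sarcomere genes, the markers listed first, and the 5 genes nearest to the members' mean profile. Markers beyond these (Pln, Nppa, Dcn, Fbln1 and Acta2) were named after their values were seen. On 10 simulated data sets of 12735 genes the gene fit called 66.4% of genes changed 2-fold and 26.9% changed 1.5-fold, with 5.6% of calls false. Their values were drawn from the gene means and the fitted variance trend, with independent normal noise and no effect shared by an array. The share of false calls follows from that choice and is no check of the fit on the real arrays. Replicate numbers recur in both groups, but the deviations of same-numbered arrays correlated at -0.03, 0.08 and -0.09, so they were not used as pairs.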

Additional observations from a re-analysis of the deposited data

How the results depend on the processing

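The count of members past the adjusted threshold was 0 under every alternative run: quantile normalisation, median centring, pseudocounts of 1 and 64, no filter, a filter at 50%, array weights, a robust prior, no variance trend, the replicate block, averaged probe sets of a gene, an adjusted p under 0.10, and each array left out. Of 362 recomputed differences of member genes and probe sets, 349 kept their sign and their side of the threshold, and 13 took the other sign. Many of these signs could not turn. The filter, the variance trend, the robust prior and the replicate block leave a difference as it is, as does averaging for a gene with a single probe set. Tnni1 is among the 362, although it was tested only without a filter. The cause of the changes below was not tested.

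The 7 genes that passed over all genes became 1 without a filter, 0 without the variance trend and 0 with a gene's probe sets averaged (683 and 688 genes had an unadjusted p under 0.05 in limma), and 1 to 9 with single arrays left out. The replicate block gave 7 genes, 0 members and a member median of 0.09, and changed no call of a member. The 2 probe sets that passed became 7 with median centring, 1 with a pseudocount of 1, 6 with a pseudocount of 64, 1 without a filter, 1 with the filter at 50%, 0 without the variance trend, 6 with array weights, 6 at an adjusted p under 0.10, and 0 to 8 with single arrays left out. The 1 member with an unadjusted p under 0.05 became 2 with quantile normalisation and with a gene's probe sets averaged, 0 with median centring, without a filter and without the variance trend, and 0 to 1 with single arrays left out. The added member was Ttn both times. Without Lira replicate 2 the 1 member was Ttn, at an unadjusted p of 0.042 in limma, while Tcap was at 0.081. Of the arrays left out, Tcap was under 0.05 only without Lira replicate 1 (0.025) and without placebo replicate 3 (0.045). The members' median was -0.01 to 0.14 with single arrays left out, the lowest without Lira replicate 2, and it was 0.01 with quantile normalisation, 0.03 with averaged probe sets and 0.04 with array weights.

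Signs turned for Tnnt2 with quantile normalisation (-0.03) and for Ldb3 (-0.13) and Prkaca (0.14) with a gene's probe sets averaged. The planned difference between Tnni1 and Tnni3 in their change is void, since Tnni1 fell below the filter on low signal. The value of this difference followed the pseudocount, with 0.46 at 1, 0.13 at 16 and -0.04 at 64. With single arrays left out it was -0.16 to 0.29. These alternatives were chosen after seeing the data, as was leaving out each marker in turn. Leaving out single arrays gave -0.05 to 0.07 for Tnnc1, -0.01 to 0.16 for Tpm1, -0.04 to 0.01 for Actn2, -0.17 to 0.13 for Tnnt2 1440424_at, -0.23 to 0.40 for Ttn 1446450_at, -0.13 to 0.01 for Tpm1 1423721_at and -0.04 to 0.08 for Ttn 1427446_s_at. For changes relative to the brightest probe set, also added after seeing the data, it gave -0.26 to 0.03 for Tnnt2 1440424_at, -0.01 to 0.04 for Tnnt2 1424967_x_at, -0.06 to 0.45 for Ttn 1446450_at and -0.03 to 0.70 for Tpm1 1456623_at. Whether dim probe sets such as those of Tnni1 and Ttn 1446450_at rose above background is not known, as no detection calls were used. Having 3 arrays a group limits every value.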
